A study of Homo sapiens with 36 samples.

Results

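MDN1 encodes midasin, and this account describes where clusters of SCAF4 and SCAF8 lay in its transcript. The clusters were chosen by position alone, as those on the strand of MDN1 with the midpoint between the ends of the gene in GENCODE 44. There were 211 of them among 278185 clusters in 18 lists, of which 181 lay in the 6 lists of SCAF4 and SCAF8 IPs, 6 in the 3 control IPs and 24 in the 9 inputs. MDN1 was picked from earlier results of these data for its many SCAF clusters, so the numbers of clusters in the IPs are a description and were not tested against inputs or controls.

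The lists come from PAR-CLIP, in which cells take up 4-thiouridine (4SU), 365 nm light crosslinks proteins to the labeled RNA, and the protein is pulled out with the RNA bound to it. The cells were HEK293 Flp-In T-REx, a human embryonic kidney line made for the inducible expression of a transgene from a fixed place in the genome. A line expressing FLAG-SCAF4, a line expressing FLAG-SCAF8 and the parental line were each used for a FLAG IP and for an input, with 3 replicates of each of the 6 groups, and the IP from the parental line without a tagged protein is called control IP. All cells received 100 μM 4SU overnight and 500 μM 4SU for 2 h, and then 2000 J/m2 of light. According to the labels, the tagged lines were induced overnight with 100 ng/mL doxycycline and the parental line was not. The study's methods name another dose and give doxycycline to the parental line too, so which of these holds for the control IPs and parental inputs is not settled here. The tagged proteins were thus expressed in addition to the cells' own, and both fractions of a replicate, soluble and chromatin, were combined in a list. The control IP lists were short, with 9638, 2314 and 1621 clusters, and the other lists held 4567 to 54404. No list holds reads, so depth is unknown.

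Midasin is a very large AAA+ ATPase that works in the nucleus on precursors of the large (60S) ribosomal subunit, where it removes assembly factors before the particle is exported. A ring of AAA+ domains is followed by a long tail and a MIDAS domain that grips its substrates. SCAF4 and SCAF8 are related RNA-binding proteins that also bind the C-terminal domain of RNA polymerase II and are known as anti-terminators of mRNA transcription. The gene lies on chromosome 6 of GRCh38, at chr6:89642498-89819794 on the minus strand. Its coding isoform has 102 exons with a summed length of 18485 nt, 10.4% of the 177297 nt of the gene, and encodes 5596 amino acids. The exons have a median length of 147 nt. The last exon, with 1696 nt, is the longest and holds the 3′ UTR.

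Among MDN1 exons, exon 92 was the only one with a midpoint in all 6 SCAF4 and SCAF8 IPs and none in any input or control IP. Its shared core, the bases that the clusters of all 6 lists covered, is shown first. The cores in exons 2 and 18, which also lay in all 6 IP lists but had clusters in inputs, in exon 23, in 5 IP lists, and in intron 37, in the 3 SCAF8 IPs, are shown for comparison and were chosen after their values had been seen. Sequences are those of GRCh38 on the minus strand of chromosome 6, with T for U. Capitals mark matches to the short motifs that the study found in clusters, searched on the transcribed strand only and sometimes overlapping: the triplets CGG and also CGA, the triplet CAG when flanked on each side by C or G, and the tetramers CTCC and also CACC.
Exon 92, chr6:89655831-89655939: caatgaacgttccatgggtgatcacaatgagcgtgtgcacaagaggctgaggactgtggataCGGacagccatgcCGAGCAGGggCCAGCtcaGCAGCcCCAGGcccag
Exon 2, chr6:89803343-89803505: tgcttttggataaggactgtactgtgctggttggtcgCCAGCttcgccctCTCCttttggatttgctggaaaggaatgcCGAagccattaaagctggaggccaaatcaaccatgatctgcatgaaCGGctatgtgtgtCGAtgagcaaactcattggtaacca
Exon 18, chr6:89758825-89758937: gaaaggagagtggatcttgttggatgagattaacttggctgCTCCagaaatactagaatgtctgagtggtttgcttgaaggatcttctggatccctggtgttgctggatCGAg
Exon 23, chr6:89751429-89751508: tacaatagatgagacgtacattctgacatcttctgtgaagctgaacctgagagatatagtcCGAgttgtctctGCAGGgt
Intron 37, chr6:89726776-89726877: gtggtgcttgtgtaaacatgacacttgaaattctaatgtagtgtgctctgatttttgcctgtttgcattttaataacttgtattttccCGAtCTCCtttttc

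The core in exon 92 was the richest in G and C of the 5 (60.6%) and held 15 T in 109 nt. It contained 4 matches to the CAG-centred motifs and 2 to CGG or CGA. The core in exon 2, of 163 nt, had 48.5% G and C and 45 T, with 3 matches to CGG or CGA. In exon 18 the core had 35 T in 113 nt and a single match each to CGG or CGA and to CTCC or CACC. The core in intron 37 was the poorest in G and C (35.3%) and had 46 T in 102 nt. The last 2 bases of the core in exon 23, gt, are the start of the next intron.

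MDN1 held more clusters in each SCAF4 and SCAF8 IP than in any input. The SCAF4 IPs held 9, 59 and 47 MDN1 clusters in replicates 1, 2 and 3, and the SCAF8 IPs 14, 21 and 31. The control IPs held 3, 0 and 3. Inputs from FLAG-SCAF4 cells held 2, 3 and 2, those from FLAG-SCAF8 cells 1, 4 and 2, and those from parental cells 5, 2 and 3. Replicate 1 was the lowest for both proteins, and replicate 2 of SCAF4, the highest, came from the longest list.

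As a share of the list, the groups overlapped. Per 10000 clusters of a list, the SCAF4 IPs had 4.74, 10.8 and 13.8 MDN1 clusters (mean 9.81 ± 4.64, SD, n = 3) and the SCAF8 IPs 5.56, 11.5 and 7.47 (8.17 ± 3.02, SD, n = 3). The inputs ranged from 1.09 to 5.91, so 4 of 6 IP lists lay above all inputs, and both lists of replicate 1 lay within their range. The control IPs had 3.11, 0 and 18.5, and the last was the highest share of all 18 lists. It rests on 3 clusters of 1621, with an exact 95% binomial interval of 3.82 to 54.0 that covers counting error only. The 0 clusters of 2314 in control IP replicate 2 have an exact 95% upper limit of 15.9 per 10000. This lies above the share of every SCAF4 and SCAF8 IP, the highest of which was 13.8.

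**Figure D1:**
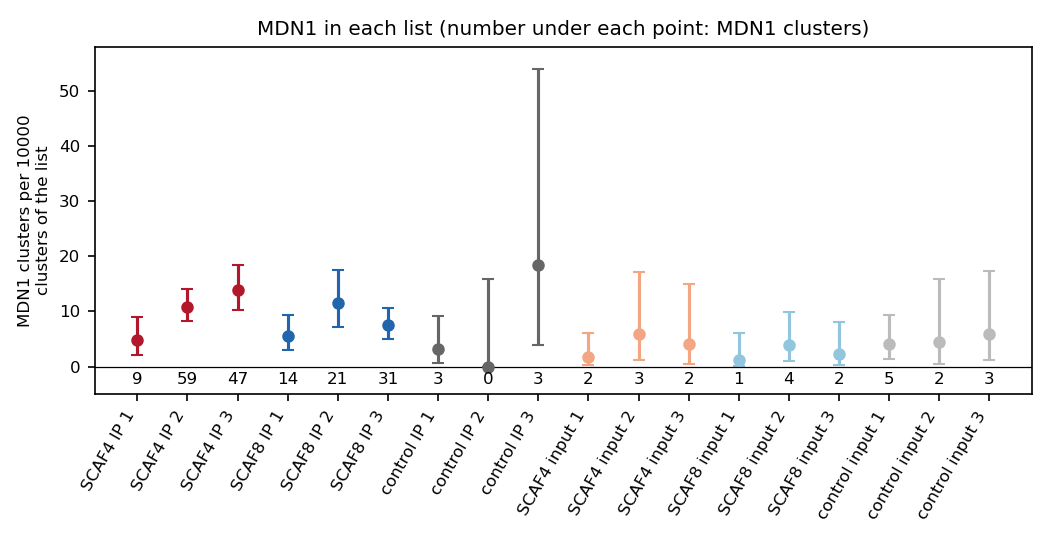
MDN1 clusters per 10000 clusters of each list, with exact 95% binomial intervals for counting error as bars and the number of MDN1 clusters under each point. The 6 SCAF4 and SCAF8 IP lists lie between 4.74 and 13.8 and the inputs between 1.09 and 5.91, and the widest interval belongs to control IP replicate 3, with 3 clusters.

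Much of what inputs and control IPs held came from a single place in the 3′ UTR. All 9 inputs had a cluster in the last exon within chr6:89642950-89643187, and clusters of control IP replicates 1 and 3 and of all 6 SCAF4 and SCAF8 IPs overlapped it. Of the 24 input clusters, 10 lay in the last exon and 3 in intron 90. Intron 90 also had a cluster in 5 IP lists and in control IP replicate 3. The cluster of SCAF4 IP replicate 2, at chr6:89656762-89656864, reached into exon 91 and lay apart from the others in this intron. The median midpoint of the clusters in intron 90 lies in a part that 5 annotated retained-intron transcripts count as exon. With the last exon and intron 90 left out, a choice made after the data were seen, 8, 54 and 42 MDN1 clusters remained in the SCAF4 IPs, 10, 19 and 29 in the SCAF8 IPs, 2, 0 and 1 in the control IPs and at most 3 in an input. Per 10000 clusters of a list this was 3.97 to 12.4 in the IPs and 0 to 2.90 in the inputs. The control IPs were then at 2.08, 0 and 6.17. The last exon and intron 90 were left out whole because inputs held clusters in them. Some IP clusters that lay in them away from any input cluster were thus left out too. These values are a description and support no difference between IPs and inputs.

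Most MDN1 clusters of the SCAF4 and SCAF8 IPs had the midpoint in an exon. Exonic and intronic shares were not computed for other genes, so those below are not shown to be particular to MDN1. In the SCAF4 IPs, 100%, 96.6% and 97.9% of the MDN1 clusters had an exonic midpoint, and in the SCAF8 IPs 78.6%, 85.7% and 90.3%. Every SCAF4 list was above every SCAF8 list, and the difference of 13.3 percentage points had p = 0.1 in a two-sided exact permutation test (Benjamini-Hochberg adjusted p = 0.4 over the 8 tests made on MDN1), the smallest value that 3 against 3 lists can give. The SCAF8 IPs held 9 of 66 clusters in introns and the SCAF4 IPs 3 of 115. Intron 37 had a cluster in all 3 SCAF8 IPs and in no SCAF4 IP, input or control IP. The median midpoint there lay 1006 nt downstream of the 5′ splice site of this 2436 nt intron. Intron 29 had a cluster in 1 SCAF4 IP, 2 SCAF8 IPs and a parental input.

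Against the inputs, the exonic share could hardly be compared. The 6 IP lists had a mean of 91.5% ± 8.26 (SD, n = 6). Only 2 inputs of the tagged lines had the minimum of 3 MDN1 clusters, with 83.3% ± 23.6 (SD, n = 2), and the difference of 8.18 points had p = 0.5 (two-sided exact permutation test, adjusted p = 0.571). When inputs with at least 1 cluster were used, the difference was −2.93 points.

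Exons with clusters were spread from the first to the last. In at least 2 of 3 lists, 37 of 102 exons held a midpoint in SCAF4 IPs and 15 in SCAF8 IPs, or 36.3% and 14.7%. Over all exons of protein-coding genes, most of which belong to genes with few or no clusters, these shares were 8.06% and 5.38%. In the control IPs and in the inputs of the parental and the FLAG-SCAF8 line a single MDN1 exon met the rule, the last, and in the inputs of the FLAG-SCAF4 line 2 exons did, exon 2 and the last (backgrounds of 0.625%, 0.792%, 1.61% and 1.14%). In at least 2 of the 6 SCAF IPs, 44 exons held a midpoint (43.1%, against 10.4% of all exons), and 41 exons held none in any of the 6. The numbers rested on replicates 2 and 3. Without either of them, 9 exons met the rule in SCAF4 IPs, and in SCAF8 IPs 8 without replicate 2 and 5 without replicate 3.

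**Figure D2:**
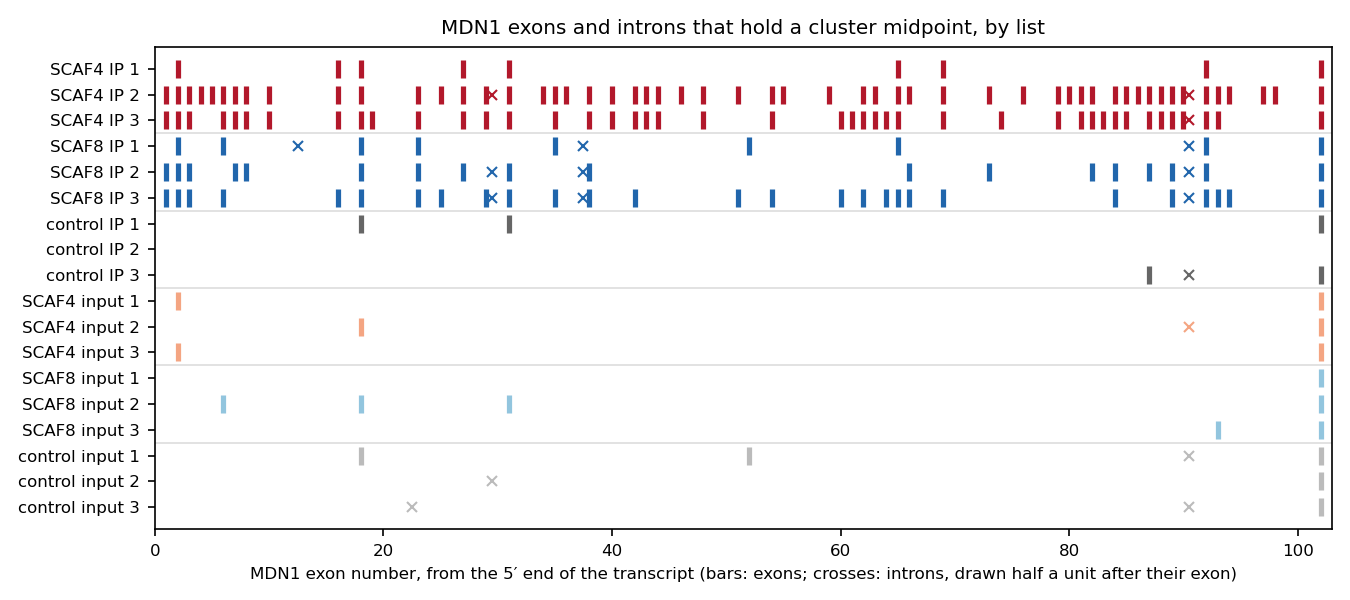
MDN1 exons (bars) and introns (crosses) with a cluster midpoint, by exon number from the 5′ end and by list. SCAF4 IP replicates 2 and 3 hold clusters in 54 and 43 exons along the whole transcript, and the column at exon 102 is filled in all lists but control IP replicate 2.

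SCAF8 exons of MDN1 were nearly all SCAF4 exons, and most SCAF8 exons of other genes were too. Of the 15 exons in at least 2 SCAF8 IPs, 14 were also in at least 2 SCAF4 IPs, which is 93.3% of the SCAF8 exons and 37.8% of the SCAF4 exons. Over all protein-coding exons these shares were 82.0% and 54.7%, and in 12 other long genes with many exons 87.6% and 44.6%. Exon 66 was the exception, and 23 exons met the rule for SCAF4 alone. Taking any list, 33 of 34 SCAF8 exons were among the 60 SCAF4 exons (97.1%, against 82.3% of all such exons and 91.2% in the 12 genes). The 9 exons of SCAF4 IP replicate 1 were all found in replicates 2 and 3 too. By bases covered in MDN1, lists of the same protein had a mean Jaccard index of 0.274 ± 0.143 (SD, 6 pairs) and lists of different proteins 0.265 ± 0.0791 (SD, 9 pairs). The difference of 0.00909 had p = 0.5 in a one-sided exact permutation test over the 10 ways to divide the lists (adjusted p = 0.571, smallest possible p = 0.1). The highest index, 0.499, joined SCAF4 IP replicates 2 and 3, and the next, 0.394 and 0.389, joined SCAF8 IP replicates 2 and 3, and SCAF4 IP replicate 3 with SCAF8 IP replicate 3.

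Beside exon 92, exons 2, 18 and 102 held a midpoint in all 6 SCAF IPs, which is 4 of 102 exons, or 3.92%, against 1.95% of all exons. Exon 92 (205 nt, chr6:89655764-89655968, codons 5096 to 5164) had a single cluster in each of the 6 lists, of 119 to 184 nt. Each of these midpoints lay 14 to 46.5 nt on the 5′ side of the exon's centre. Exon 18 (145 nt, codons 821 to 869) was covered nearly end to end, by clusters of 115 to 135 nt. The same place held clusters in 1 input of each line, of 97 to 116 nt, and in control IP replicate 1. Exon 2 (227 nt, codons 35 to 110) had clusters of 177 to 214 nt in the 6 IPs and of 145 and 195 nt in 2 inputs of the FLAG-SCAF4 line.

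**Figure D3:**
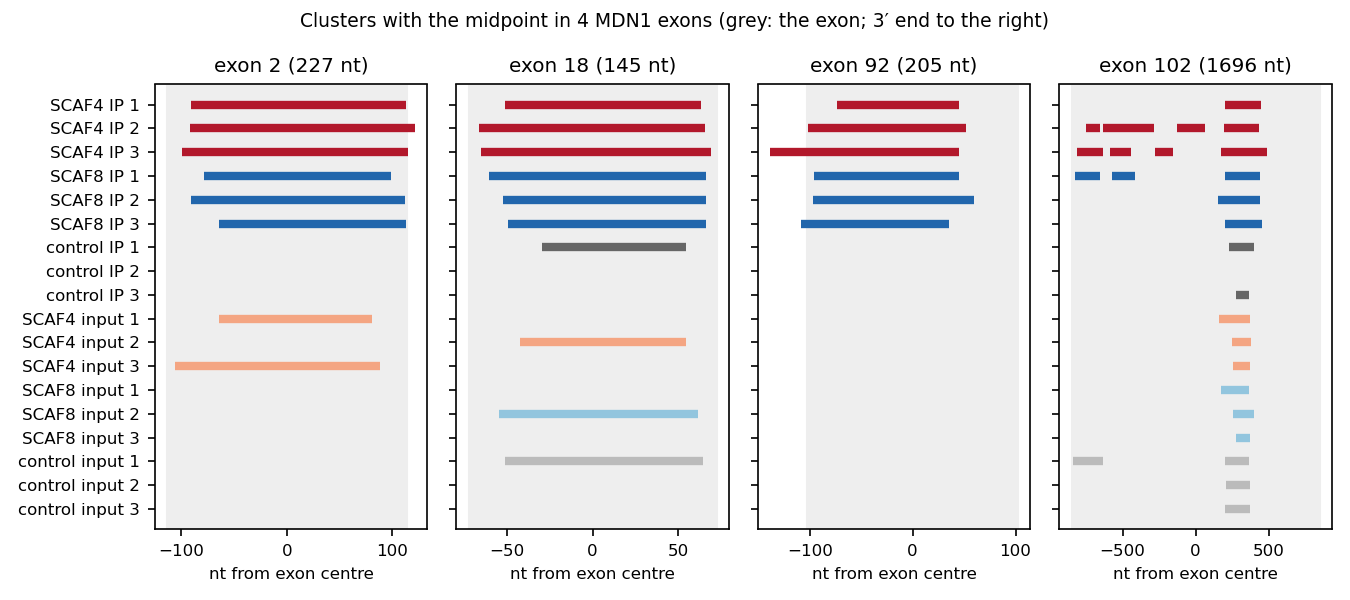
Position of every cluster with its midpoint in exons 2, 18, 92 and 102, by list, in nt from the exon's centre with the 3′ end to the right. Exon 92 has 6 clusters, all in SCAF4 and SCAF8 IPs, whereas in exon 102 the same place is covered in all 9 inputs.

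Exons 31 and 87 were the other exons with a cluster in a control IP. Exon 31 held a midpoint in 3 SCAF4 IPs, 2 SCAF8 IPs, 1 input and control IP replicate 1. Exon 87 was found in 2 SCAF4 IPs, 1 SCAF8 IP and control IP replicate 3. Exon 1, which holds the 5′ UTR and the start codon, had a midpoint in 2 SCAF4 IPs and 2 SCAF8 IPs and in no input or control IP. In all, 53 of the 61 exons with a cluster in a SCAF IP (86.9%) had none in any input or control IP. Among all protein-coding exons with a cluster in a SCAF IP this share was 69.1%, and in the 12 other long genes with many exons 77.9%. Most input and control lists were much shorter than the IP lists.

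Exons with clusters were longer than those without. Leaving out the last exon, the 43 exons in at least 2 IP lists had a median length of 171 nt (104 to 706 nt), and the 41 exons in no IP list 116 nt (61 to 232 nt). None of the 11 exons under 100 nt was in at least 2 IP lists. Of exons of 100 to 149 nt, 12 of 44 were (27.3%), and of those of 150 nt or more, 31 of 46 (67.4%). Across 101 exons the number of IP lists had a Spearman correlation with length of 0.53, with the share of G and C of 0.33, with the share of U of −0.30 and with exon order of −0.05, given as descriptions because exons share lists and transcripts. A longer exon also has more room for a midpoint, and reads were aligned to the genome without splicing, so that reads across a junction were not placed. The part of either in these numbers was not tested. Length and cluster share also moved together elsewhere. In 12 other long genes with many exons the share was 20.8% of 485 exons under 150 nt and 42.7% of 532 longer exons, and in all protein-coding genes 6.21% and 14.8%.

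**Figure D4:**
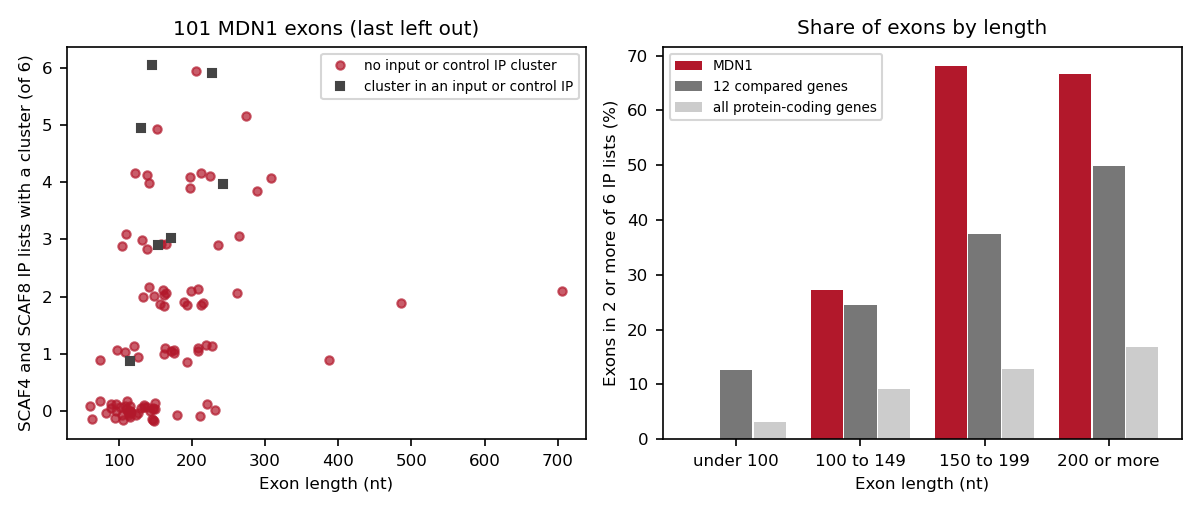
Left, number of SCAF4 and SCAF8 IP lists with a midpoint against length for 101 MDN1 exons, with points shifted slightly up or down to separate them and squares for exons with a cluster in an input or control IP. Right, share of exons in at least 2 of the 6 lists by length in MDN1, in 12 compared genes and in all protein-coding genes, and the share in MDN1 is 0% under 100 nt and 68.2% at 150 to 199 nt.

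Many of the clusters in exons reached past an end. Of 155 IP clusters in exons other than the last, 80 lay within the exon, 14 covered it whole and none touched a second exon. The median distance from midpoint to centre was 15 nt. IP clusters had a median length of 137 nt, near that of the exons, which leaves a midpoint little room away from the centre. A preference for the centre was not tested. Over all 181 IP clusters, 57 reached at least 1 nt past the 3′ end of an exon and 33 past a 5′ end. Per list, the share past a 3′ end minus the share past a 5′ end was −11.1, 20.3 and 12.8 percentage points in SCAF4 IPs and −7.14, 19.0 and 12.9 in SCAF8 IPs. The mean of 7.80 ± 13.5 (SD, n = 6) had p = 0.188 in a two-sided exact sign-flip permutation test (adjusted p = 0.405). At a reach of 10 nt the counts were 15 and 23 and the mean turned to −4.55 points.

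Clusters were not shown to favour either end of the spliced transcript. The share of exonic clusters in the 5′ 50% of the spliced length was 55.6%, 50.9% and 47.8% in SCAF4 IPs and 54.5%, 55.6% and 57.1% in SCAF8 IPs. The mean of 53.6% ± 3.52 (SD, n = 6) against 50% had p = 0.0938 (two-sided exact sign-flip permutation test, adjusted p = 0.4). When exons of the coding isoform were merged with those of 9 transcripts annotated as protein coding without a defined coding sequence, it was 55.2% and p = 0.0312 in the same exact test, and without the last exon, over the shorter length, 59.1% and p = 0.0625. Neither p was adjusted, and 0.0312 is the smallest that 6 lists can give in this exact sign-flip test. The mean position was 46.7% ± 3.80 of the spliced length from the 5′ end in SCAF4 IPs and 44.2% ± 4.11 in SCAF8 IPs (SD, n = 3 each). This difference of 2.46 points had p = 0.3 (two-sided exact permutation test, adjusted p = 0.48, smallest possible p = 0.1). By groups of 17 exons, the numbers in at least 2 of 6 IP lists were 8, 6, 8, 7, 7 and 8 from the 5′ end. The longest run of exons without an IP cluster was exons 11 to 15.

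Neither the level of SCAF4 against SCAF8 nor that of tagged against parental inputs differed by more than the lists' spread. On the log2 scale of clusters per 10000, SCAF4 IPs exceeded SCAF8 IPs by 0.19 (3.16 ± 0.81 against 2.97 ± 0.53, SD, n = 3 each), with p = 0.8 in a two-sided exact permutation test (adjusted p = 0.8, smallest possible p = 0.1). Without replicate 3 the difference was −0.16. The 6 inputs of the tagged lines had 3.15 ± 1.79 MDN1 clusters per 10000 and the 3 parental inputs 4.76 ± 1.01 (SD), with p = 0.202 in the same exact test (adjusted p = 0.405).

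The standing of MDN1 among genes depended on the removal of clusters seen in inputs and on the replicates used. Clusters of at least 2 lists that shared a base were merged into regions, for each protein or pooled over both. Regions were removed if they overlapped clusters of at least 2 inputs, lay in a gene whose merged input regions numbered 1 or more per 10 kb, or overlapped a control IP cluster. MDN1 had 34 of 39 SCAF4 regions left (87.2%, against 35.4% of all regions), 12 of 17 SCAF8 regions (70.6%, against 25.3%) and 43 of 49 pooled regions (87.8%, against 39.6%). After removal by input overlap alone, 92.3%, 76.5% and 91.8% were left, against 67.9%, 55.4% and 72.7% of all regions. The limit of density, counted over the whole gene with its introns, removes all regions of a gene or none. With 11 merged input regions, or 0.607 per 10 kb, MDN1 stayed under it. MDN1 was chosen for its many clusters, so its shares of regions left are a description. The removed pooled regions were those of exons 2, 18, 31 and 87, of intron 90 and of the 3′ part of the last exon. The 43 that were left lay in 40 exons and in introns 29 and 37, had lengths of 105 to 350 nt, and came from both proteins in 31 cases, from SCAF4 alone in 11 and from SCAF8 alone in 1, the region of intron 37. Without replicate 2 or 3, 23 and 24 pooled regions were left.

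By pooled regions MDN1 shared the first place with TRRAP, an adaptor of histone acetyltransferase complexes, at 43 regions, ahead of the dynein heavy chain gene DYNC1H1 with 40. By SCAF4 regions only TRRAP with 36 and DYNC1H1 with 35 were ahead of its 34. By SCAF8 regions 3 genes, MDN1 among them, shared rank 4, with 12 against 20 in TRIO. Without the limit of input density, MDN1 shared the fifth place, and the ubiquitin ligase gene UBR4 led with 60 pooled regions, followed by ANKRD11 with 48 and PRKDC, the catalytic subunit of DNA-PK, with 46. Without that limit its rank was 5 by SCAF4 regions and 28 by SCAF8 regions, with 12 against 39 in DNAH17. With no removal step at all, MDN1 was at rank 11 by pooled regions, 15 by SCAF4 regions and 95 by SCAF8 regions. By the 181 clusters themselves, before merging, MDN1 was 35th of 9467 protein-coding genes with a cluster, and ANKRD11 had 381. The rank also moved with the replicates. Without replicate 1 MDN1 led alone by pooled regions, with 45, without replicate 2 it was at rank 4, with 23 against 30 in DYNC1H1, and without replicate 3 at rank 2, with 24 against 25. By SCAF4 regions its rank was 27 without replicate 2 and 14 without replicate 3, and by SCAF8 regions 27 and 15. Per kb of exon, MDN1 had 9.79 IP clusters and stood 624th of 776 genes with at least 50 IP clusters.

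**Figure D5:**
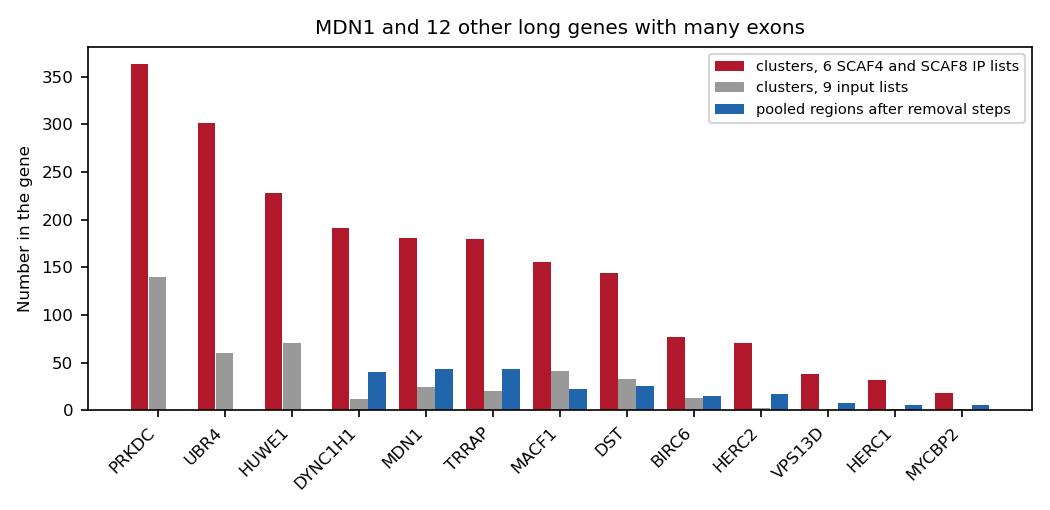
Clusters in the 6 SCAF4 and SCAF8 IP lists, clusters in the 9 inputs and pooled regions left after the removal steps, for MDN1 and 12 other long genes with many exons. MDN1 has 181, 24 and 43, and PRKDC, UBR4 and HUWE1, with more clusters in IPs and inputs, have 0 pooled regions left.

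Other genes of comparable build ranged widely. In the 12 compared genes, with 70 to 106 exons, the share of exons in at least 2 of 6 IP lists ran from 3.85% in HERC1 to 61.6% in PRKDC, and 5 genes were above the 43.1% of MDN1. VPS13D, with 70 exons, had 38 IP clusters and MYCBP2, with 85 exons, had 18. Levels of these transcripts were not measured in the lists, so their part in the differences was not tested.

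MDN1, chosen for its many clusters, had more of them than other factors of its pathway, but not the most per length or per exon. The 28 genes of 60S subunit assembly that were looked up held 2 to 113 clusters in the SCAF IPs, with a median of 21, against 181 in MDN1. The share of all protein-coding genes with such a cluster was not computed, so its presence in all 28 is not a result about the pathway. Of the 28 genes, 14 held a pooled region (50.0%, against 52.9% of all protein-coding genes with a cluster). Among the 6 with most IP clusters, PES1, a subunit of the PeBoW complex that acts in the same maturation steps, had 48 IP clusters and 14 pooled regions. GTPBP4, a nucleolar GTPase, had 113 IP clusters, RRP1 82, the rRNA methyltransferase gene NOP2 48, GNL2 47 and NOL9, a kinase of pre-rRNA ends, 34, and none of these had a pooled region left. All 28 have far fewer exons than MDN1, from 1 in RRS1 to 24 in NVL. Per kb of exon, 12 of the 28 were above the 9.79 IP clusters of MDN1, up to 27.7 in RRP1, and the median was 8.61. Per exon, 17 of the 28 were above the 1.77 of MDN1, up to 6.65 in GTPBP4.

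The 100 nt around the centre of an exon held CGG or CGA in 72.1% of the 43 MDN1 exons in at least 2 IP lists (the last exon left out), in 41.2% of the 17 in a single list, in 56.1% of the 41 in none, and in 67.3% of all protein-coding exons. For CAG flanked on each side by C or G these shares were 55.8%, 29.4%, 51.2% and 52.9%, and for CTCC or CACC 51.2%, 52.9%, 43.9% and 59.1%. In none of the 3 motif groups did the share follow the order of the classes from no list over 1 list to at least 2 lists. The share of G and C in these windows had a median of 52.0% in MDN1 exons in at least 2 IP lists, 48.0% in those in a single list and 46.0% in those in none. Over whole exons the medians were 49.3%, 46.0% and 45.9%. Windows of exons under 100 nt reach into introns, and 9 of these 11 exons were in no IP list.

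Over the 18 lists, the genes whose clusters per 10000 followed those of MDN1 most closely by Spearman's rho were BRD7 (0.86), RABL6 (0.82), SDF4 (0.77), POLE (0.76) and DDX11 (0.76), among 1251 genes with at least 50 clusters. The median rho was −0.05. The 18 lists include IPs, inputs and controls of very different length, and these values are given with no test.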

How the data were processed

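The members and gene lists were chosen with earlier results of these data known. The authors trimmed reads (Trim Galore, cutadapt), aligned them to GRCh38 with Bowtie2 2.2.9, removed duplicates (Picard), combined both fractions and called clusters with PARalyzer. Each deposited list gives the position, the strand and a score between 0.5 and 1 that the files do not name, and only the order of scores inside a list was used. They precede the authors' filters on inputs and control IPs. Replicate 1 was sequenced with longer reads than replicates 2 and 3.

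Genes and exons were taken from GENCODE 44, with the protein-coding isoform of largest summed exon length, and a midpoint in several genes went to the shorter protein-coding gene. The input density of a gene used merged input regions in it and in 2000 nt beside it. Lists with fewer than 3 MDN1 clusters entered no exonic, positional or junction share. GENCODE names AFG2A by an older symbol. Exons, introns, comparison genes and pathway genes were named by fixed rules, and exon 66, exon 23 and the cores beside exon 92 were named after their values were seen. Labels were exchanged in exact permutation tests and signs in exact sign-flip tests, with Benjamini-Hochberg adjustment. The study calls the replicates biological and the labels say no more of them, so p-values measure the spread between these lists. Python 3.11.15 was used with scipy 1.17.1, statsmodels 0.14.6 and pandas 2.3.3, and the tests and the merging were tested on simulated data.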

Additional observations from a re-analysis of the deposited data

How the results depend on the processing

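None of the 8 tests on MDN1 passed 0.05. Those of SCAF4 against SCAF8 lists and the Jaccard test could not, since their smallest possible p was 0.1. Each test was repeated without each replicate, with higher scores only, with other rules of assignment and, chosen after the data were seen, without the last exon and without the last exon and intron 90. In the tests that could not pass, no p in the same exact tests was under 0.333 without a replicate, so these repeats decide nothing. Assigning clusters to MDN1 by an overlap of 1 nt left all 8 values unchanged, so that setting is no check of them. The share in the 5′ 50% of the spliced length passed 0.05, at 55.2%, when exons of transcripts without a defined coding sequence were merged in. This p was the smallest that 6 lists can give. It was not adjusted for the number of tests or settings and is not taken as a result. The exonic share of IPs minus inputs turned to −21.5 points among clusters scoring at least the median, −2.93 with at least 1 cluster per list, −9.71 without the last exon and −6.55 without the last exon and intron 90, and could not be had without replicate 2. The spliced position of SCAF4 minus SCAF8 turned to −0.80 points with higher scores, the junction difference to −4.55 at 10 nt, and the Jaccard difference to −0.0116 for shared exons. Without single replicates, the Jaccard difference ranged from −0.0703 to 0.118 and the log2 difference of SCAF4 and SCAF8 from −0.16 to 0.40. Cause was not tested.

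Counts depended on the number of lists. Without single replicates, 9 to 37 exons met the rule in SCAF4 IPs and 5 to 12 in SCAF8 IPs, and 5 to 36 SCAF4 regions, 4 to 12 SCAF8 regions and 23 to 45 pooled regions were left. Requiring all 3 lists gave 9 and 5 exons and 5 and 3 regions, and 5 of 6 lists gave 2 pooled regions. With higher scores 14 and 5 exons, 13 and 5 regions and 24 pooled regions were left. Omitting any removal step moved the numbers of regions by 2 or fewer.

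An IP and the input of its extract carry the same replicate number and are paired by it. In the replicate block, labels were exchanged within a number. In this exact test p was 0.667 for the exonic share of IPs and inputs and 0.25 for that of SCAF4 and SCAF8. It was 1 for the log2 difference of 0.19, 0.5 for the spliced position and 0.185 for the inputs. For SCAF4 against SCAF8, 0.25 is the smallest p that this exact test can give, so these repeats could not pass and decide nothing. The exonic share of IPs and inputs could not pass either. Both of its inputs carry number 2, so only lists of that number were exchanged. The call for the inputs did not change. Deviations of same-numbered SCAF4 and SCAF8 IPs from their group means correlated at −0.06 to 0.46 over 1252 genes, and those of differently numbered ones at −0.49 to 0.44. For SCAF4 IPs and their inputs the ranges were 0.004 to 0.22 with the same number and −0.32 to 0.14 with different ones. For SCAF8 they were 0.16 to 0.56 and −0.43 to 0.28. The ranges overlap, so the number did not always join the lists most alike. Inputs and control IPs held 0 to 5 MDN1 clusters each, which limits comparisons with them, and depth is unknown.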

Other observations

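On the strand opposite to MDN1, 6 lists held a single cluster each, all at the same place, with the longest at chr6:89721158-89721243 on the plus strand. They were the 3 SCAF4 IPs, SCAF8 IP replicate 1, control IP replicate 2 and replicate 1 of the FLAG-SCAF4 input. No annotated gene lies there on the plus strand within 2000 nt. The antisense transcript MDN1-AS1 and the pseudogenes DNAJC19P6 and PIMREGP3, which lie within MDN1 on that strand, held no cluster midpoint.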
